A study of Homo sapiens with 8 samples.

Results

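The 56 genes described here are expressed in the G2 phase and in mitosis. They are a list of symbols, with no threshold on measured values, that was drawn up with earlier results of these data known, and all 56 were found among the 19952 gene symbols listed in each library. They were measured by RNA-seq in 92.1 and MEL290, established lines of human uveal melanoma (UVM), after the level of APOBEC3B (A3B), a cytosine deaminase of single-stranded DNA, had been changed. The 92.1 libraries comprise 2 from cells with an A3B hairpin (shA3B) and 2 from cells with the control vector (shCtrl), and the MEL290 libraries comprise 2 from cells that overexpress A3B (A3B OE) and 2 from cells with the control construct (NC). Hairpins in pGIPZ and the A3B reading frame in pHAGE were delivered by lentivirus, with selection by puromycin. Each comparison rests on 1 cell line, and the labels do not say which hairpin was used. The values are FPKM, that is, fragment numbers scaled to transcript length and to the mapped fragments of the library. The labels do not say that the 2 libraries of a group came from separate cultures, and the p-values then measure only the spread between these libraries, which may be technical.

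Entry into mitosis is driven by the kinase CDK1 with its B-type cyclins. Polo-like and Aurora kinases, the kinetochore and the spindle then attach and align the chromosomes, and the anaphase-promoting complex (APC/C) degrades cyclin B and securin to let them part. The genes of this programme are repressed in quiescent and early cycling cells by the DREAM complex, which binds the cell cycle genes homology region (CHR), and are induced in G2 by B-MYB with the MuvB core and by FOXM1, often together with NF-Y at CCAAT boxes. In a culture of dividing cells, RNA of these genes is known to be highest in cells in G2 and mitosis.

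The promoters of CCNB1 and CCNB2 (the B-type cyclins), PLK1 (Polo-like kinase) and CDC20 (activator of the APC/C) are shown because their genes rose in A3B OE cells. Those of CDC27 (APC/C subunit) and RANGAP1 (GTPase-activating protein of Ran) are shown because their genes were among the 5 members that did not pass the test there. Each sequence is the 250 bases before the start of the RefSeq gene in GRCh38.p14, 5′ to 3′ on the strand of the gene, with CHR matches (TTTGAA or TTTAAA, either strand) and CCAAT boxes (either strand) in capitals. The windows lie at chr5:69166900-69167149 (+) for CCNB1, chr15:59104896-59105145 (+) for CCNB2, chr16:23678639-23678888 (+) for PLK1, chr1:43358731-43358980 (+) for CDC20, chr17:47189296-47189545 (−) for CDC27 and chr22:41286188-41286437 (−) for 1 of the 2 starts of RANGAP1.
CCNB1: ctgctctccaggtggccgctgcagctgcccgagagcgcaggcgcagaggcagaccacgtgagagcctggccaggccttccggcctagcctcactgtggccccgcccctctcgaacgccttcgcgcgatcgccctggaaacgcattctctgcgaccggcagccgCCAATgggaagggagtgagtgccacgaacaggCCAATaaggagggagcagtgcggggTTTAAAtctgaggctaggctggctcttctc
CCNB2: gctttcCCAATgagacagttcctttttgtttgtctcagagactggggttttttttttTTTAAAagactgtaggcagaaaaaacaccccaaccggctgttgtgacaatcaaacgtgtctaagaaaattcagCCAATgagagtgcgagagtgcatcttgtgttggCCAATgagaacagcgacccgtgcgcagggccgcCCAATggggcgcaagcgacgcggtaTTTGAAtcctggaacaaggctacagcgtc
PLK1: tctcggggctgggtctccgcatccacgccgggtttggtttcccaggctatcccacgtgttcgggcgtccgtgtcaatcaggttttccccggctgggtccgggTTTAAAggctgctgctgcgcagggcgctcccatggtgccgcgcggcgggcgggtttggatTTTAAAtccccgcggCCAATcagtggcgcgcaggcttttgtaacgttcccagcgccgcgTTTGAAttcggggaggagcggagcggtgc
CDC20: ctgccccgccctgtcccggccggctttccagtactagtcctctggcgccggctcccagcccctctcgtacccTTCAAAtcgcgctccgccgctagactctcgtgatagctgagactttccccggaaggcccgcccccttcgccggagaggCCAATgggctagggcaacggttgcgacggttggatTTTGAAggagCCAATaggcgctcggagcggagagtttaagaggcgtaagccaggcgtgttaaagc
CDC27: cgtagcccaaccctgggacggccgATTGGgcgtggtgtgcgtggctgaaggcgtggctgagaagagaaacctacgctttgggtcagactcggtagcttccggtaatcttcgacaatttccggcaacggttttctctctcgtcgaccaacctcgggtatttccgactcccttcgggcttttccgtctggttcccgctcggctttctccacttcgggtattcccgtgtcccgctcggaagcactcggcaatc
RANGAP1: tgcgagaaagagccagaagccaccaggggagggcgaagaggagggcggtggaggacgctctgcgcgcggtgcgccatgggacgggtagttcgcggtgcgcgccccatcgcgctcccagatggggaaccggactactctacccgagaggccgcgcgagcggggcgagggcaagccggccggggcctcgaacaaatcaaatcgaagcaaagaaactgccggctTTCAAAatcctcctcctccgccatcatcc

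Positions are counted from the annotated start, at the first base of a match on the strand of the gene. In CCNB1, CCAAT boxes lay at −87 and −55, which is 32 bases apart, and a TTTAAA lay at −30, 25 bases after the second box. In CCNB2, boxes at −120, −87 and −54 were spaced by 33 bases, and a TTTGAA at −29 followed the last of them by 25 bases, with a further box at −244. PLK1 held a TTTGAA at −29, with a single CCAAT box at −73. CDC20 held CCAAT boxes at −100 and −55, and its TTTGAA matches, at −178 and −65, both lay before the last box. CDC27, like CCNB1, held no TTTGAA within its window. It held a CCAAT box at −226 and a TTTAAA at 41, after the bases shown. RANGAP1 held 1 TTTGAA at −29 but no CCAAT box. In TOP2A, which rose and is not shown, the last TTTGAA match lay at −151, before the last CCAAT box at −53.

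Of the 56 members, 47 were matched in the RefSeq promoter table, with 60 windows of 300 bases (250 before and 50 after the start), and HMGB2, UBE2C, BIRC5, TPX2, PIMREG, ANP32E, TTK, CDCA2 and AURKA were not in it. TTTGAA was present in 36 of the 60 windows (60.0%), compared with 15.16% of all 35116 windows of the table and 10.17% of the windows of the other genes tested in MEL290. TTTAAA was present in 28.33% of the member windows and 12.24% of all windows, and a CCAAT box in 68.33% and 34.61%. TTTGAA and CCAAT were present together in 48.33% of the member windows and in 5.903% of all windows. The E2F motifs searched (TTTGGCGC, TTTCCCGC, TTTGCCGC and TTTCGCGC) were in 6.667% of the member windows, 3.315% of all windows and 5.036% of the windows of the other genes tested in MEL290. Counted per gene, 6.383% of the members and 6.936% of those other genes held one. None of these motifs contains another, and TTTAAA, which reads the same on both strands, was counted once. Of the 50 TTTGAA matches in the members, 31 lay within 50 bases of the start, with a median position of −29. Windows of the same gene can overlap, and a site that lay in overlapping windows was counted in each, as for CDC25C and ECT2. Of the 5 members that did not pass the test in MEL290, CKAP5, G2E3, JPT1 and RANGAP1 held a TTTGAA.

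The members lie on 20 chromosomes, with 10 of them on chromosome 1 and 0 on chromosome 19. Across the 8 libraries the rough depth, estimated from genes with 1 transcript and very low FPKM, was between 17500000 and 32100000 fragments, and the lowest values were those of the NC libraries (17500000 and 20400000, compared with 27600000 and 22500000 for A3B OE). APOBEC3B itself followed the labels. It was at 35.95 and 32.3 FPKM in shCtrl cells, 1.98 and 2.37 in shA3B cells, 2.67 and 2.19 in NC cells and 28.4 and 27.5 in A3B OE cells. The 12 melanocyte markers summed to between 7327 and 8936 FPKM in the libraries of 92.1 but to between 32.9 and 39.4 FPKM in those of MEL290, where 10 of the 12 were under 1 FPKM in both NC libraries and TYR and SOX10 were listed at 0 in both. MITF and GPR143 made up most of the sum in MEL290. Summed markers of leukocytes and endothelial cells stayed at or under 0.78 and 0.165 FPKM in every library, and those of epithelial cells at or under 8.21 FPKM.

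The levels of the members spanned a wide range in every group. TUBB4B, a beta tubulin, had the highest mean, between 223 and 348 FPKM over the 4 groups. The lowest mean in 92.1 was that of CENPE, a kinetochore motor, at 0.553 FPKM in shCtrl cells, and the lowest in MEL290 was that of CDC25C, the phosphatase that activates CDK1, at 2.39 FPKM in NC cells. A mean of at least 10 FPKM was reached by 46 of the 56 members in shCtrl, 47 in shA3B, 37 in NC and 52 in A3B OE cells. The median FPKM over the members was 27.1 and 23.6 in the shCtrl libraries, 27.5 and 25.9 in the shA3B libraries, 18.2 and 17.8 in the NC libraries and 30.0 and 32.6 in the A3B OE libraries. The 2 groups of MEL290 did not overlap, and those of 92.1 did. The smallest p that an exact permutation test (two-sided) of 2 libraries against 2 allows is 0.33.

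**Figure D1:**
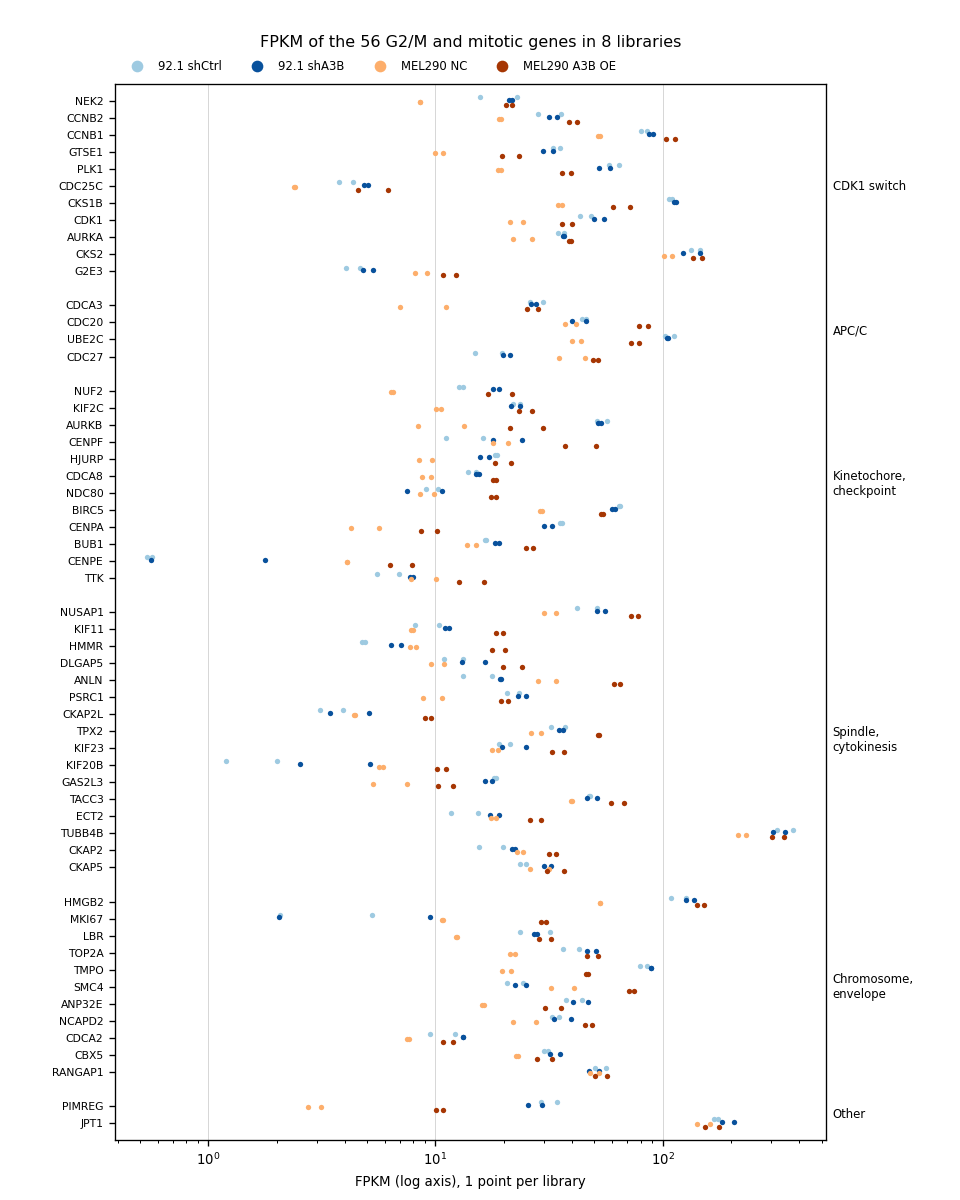
FPKM of the 56 members (log axis) in each of the 8 libraries, 1 point per library, coloured by group and arranged by role. In MEL290 the A3B OE points lie to the right of the NC points for 53 of the 56 members, and the points of shCtrl and shA3B cells lie close together for most members.

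The comparison of A3B OE with NC cells asks which members change with added A3B in MEL290. Nearly the whole programme was higher in A3B OE cells. Of the 56 members, 51 were called higher and 0 lower (limma on log2(FPKM + 1), adjusted p under 0.05 over 11611 genes), compared with 10.3% of all genes tested called higher and 7.49% called lower. All 56 had a positive log2 change, with a median of 0.91 and a range from 0.09 to 1.53, against a median of 0.0041 over all genes tested. The change was at least 1 for 20 of them, all called, where 225 of all 11611 genes tested were called higher by at least 1. Both A3B OE libraries lay above both NC libraries for 53 members and below them for 0, where 31.5% and 29.7% of all genes tested did so. Of the 500 genes with the largest rises among the 11611 tested, 39 were members. Bulk RNA cannot tell apart more cells in G2 and mitosis from more of this RNA per cell. Changes on the log2(FPKM + 1) scale understate those of genes with low FPKM.

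**Figure D2:**
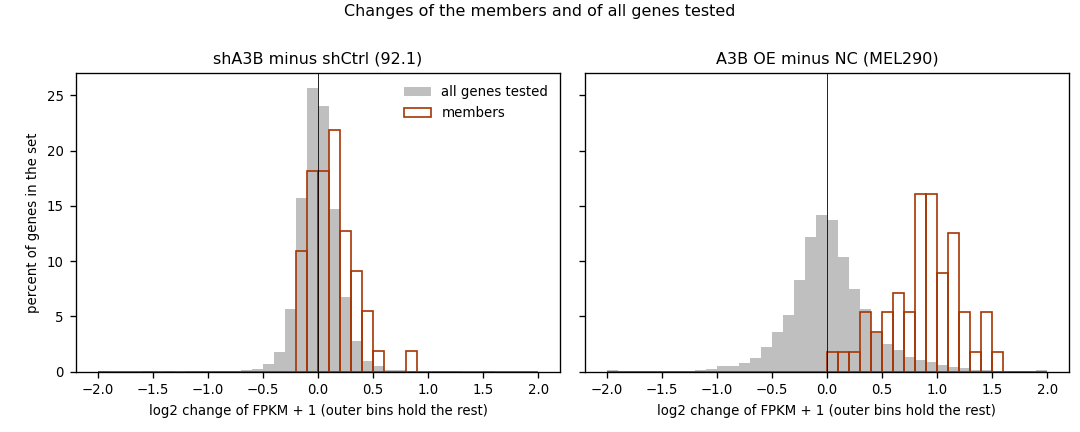
Distribution of log2 changes of FPKM + 1 in 92.1 (left) and MEL290 (right), as percent of the members (open bars) and of all genes tested (grey bars) in bins of 0.1. The members of MEL290 lie to the right of 0, with a median of 0.91, while those of 92.1 lie near 0, with a median of 0.11.

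Among the 11 genes of the CDK1 switch, 10 were called higher, and the median log2 change was 0.89. CCNB1, the cyclin that carries CDK1 into mitosis, was at 52.1 and 53.0 FPKM in NC cells and at 114 and 104 FPKM in A3B OE cells, a log2 change of 1.03 (standard error 0.08, adjusted p = 0.0018, limma). The A3B OE libraries were about equally high and lay well clear of the controls. CDK1 itself was at 21.4 and 24.3 FPKM in NC and 36.0 and 39.9 FPKM in A3B OE cells, a smaller change of 0.71 (standard error 0.10, adjusted p = 0.0094, limma). PLK1, which promotes entry into mitosis and spindle assembly, was at 19.4 and 18.8 FPKM in NC and 39.3 and 35.9 FPKM in A3B OE cells, with a change of 0.94 (standard error 0.09, adjusted p = 0.0032, limma). AURKA, the kinase of spindle poles, was at 26.5 and 21.8 FPKM in NC and 39.4 and 38.7 FPKM in A3B OE cells, with a change of 0.68 (standard error 0.11, adjusted p = 0.012, limma). The groups overlapped for none of these 4 genes. The rise was largest for the centrosomal kinase NEK2 (1.21) and smallest among called genes for CKS2, a small subunit of cyclin-dependent kinases (0.43). G2E3, which encodes a ubiquitin ligase, was the uncalled gene of this group, at 9.19 and 8.095 FPKM in NC and 10.8 and 12.3 FPKM in A3B OE cells (log2 change 0.38, adjusted p = 0.091, limma).

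Of the 4 genes around the APC/C, 3 were called higher and the core subunit did not pass the test. CDC20, the activator of the complex in mitosis, was at 41.4 and 37.0 FPKM in NC and at 86.4 and 78.5 FPKM in A3B OE cells, a log2 change of 1.05 (standard error 0.09, adjusted p = 0.0027, limma). UBE2C, the ubiquitin-conjugating enzyme of the complex, was at 43.5 and 39.9 FPKM in NC and 78.3 and 72.7 FPKM in A3B OE cells, with a change of 0.84 (standard error 0.08, adjusted p = 0.0035, limma). CDCA3, a trigger of mitotic entry that takes part in the degradation of the inhibitory kinase WEE1, had the second largest change of all members, at 1.495 (standard error 0.20, adjusted p = 0.0072, limma), from 11.2 and 7.005 FPKM to 28.4 and 25.3 FPKM. CDC27, a core subunit, was at 35.1 and 45.6 FPKM in NC and 49.4 and 51.9 FPKM in A3B OE cells. Its groups did not overlap, but its NC libraries lay far apart and the change of 0.33 (standard error 0.13) had an adjusted p of 0.13 (limma).

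All 12 genes of the centromere, kinetochore, spindle checkpoint and chromosomal passenger complex rose, with changes from 0.65 to 1.45 and a median of 0.91. NUF2, which forms the microtubule-binding NDC80 complex with NDC80, was at 6.49 and 6.35 FPKM in NC and at 17.0 and 21.7 FPKM in A3B OE cells, a log2 change of 1.45 (standard error 0.14, adjusted p = 0.0032, limma). Its partner NDC80 changed by 0.89 (adjusted p = 0.0061, limma). BUB1, a checkpoint kinase of the kinetochore, was at 13.8 and 15.04 FPKM in NC and 24.9 and 26.8 FPKM in A3B OE cells, with a change of 0.80 (standard error 0.10, adjusted p = 0.0058, limma). CENPF, a large protein of the outer kinetochore, was at 20.8 and 17.9 FPKM in NC and 37.1 and 50.8 FPKM in A3B OE cells, with a change of 1.13 (standard error 0.16, adjusted p = 0.0087, limma). The 2 groups did not overlap for any of the 12 genes. The 3 members of the chromosomal passenger complex all rose, with a change of 1.17 for the kinase AURKB, 0.87 for BIRC5 (survivin) and 0.92 for CDCA8 (borealin). AURKB was the least even of them, at 13.4 and 8.35 FPKM in NC and 29.7 and 21.2 FPKM in A3B OE cells (standard error 0.24, adjusted p = 0.024, limma). CENPA, the histone H3 variant of centromeres, and HJURP, its chaperone, changed by 0.81 and 1.05. The weakest calls were those of CENPE (0.67, adjusted p = 0.028, limma) and of the checkpoint kinase TTK (0.65, adjusted p = 0.048, limma).

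Of the 16 genes of spindle microtubules, motors and cytokinesis, 15 were called higher, and the median log2 change of the 16 was 0.89. The largest changes were those of NUSAP1, which binds and bundles spindle microtubules (1.21), KIF11, the kinesin that pushes the spindle poles apart (1.18), and HMMR, a hyaluronan receptor that also binds the spindle (1.15). NUSAP1 went from 30.2 and 33.9 FPKM in NC to 78.0 and 72.8 FPKM in A3B OE cells. ANLN and ECT2, which act in the contractile ring and its positioning, changed by 0.99 and 0.59, and the midzone kinesin KIF23 by 0.89. TUBB4B, the most abundant member, was at 232 and 215 FPKM in NC and 342 and 304 FPKM in A3B OE cells, a change of 0.53 (standard error 0.08, adjusted p = 0.011, limma). CKAP5, a microtubule polymerase, was not called, at 31.5 and 26.0 FPKM in NC and 30.9 and 36.9 FPKM in A3B OE cells. Its libraries overlapped between the groups, and its change was 0.23 (standard error 0.13, adjusted p = 0.27, limma).

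Among the 11 genes of chromosome structure and the nuclear envelope, 10 were called higher, and the median log2 change of the 11 was 0.99. HMGB2, a chromatin protein that bends DNA, was at 53.2 and 53.1 FPKM in NC and 142 and 153 FPKM in A3B OE cells, a change of 1.45 with the lowest adjusted p of the members (standard error 0.07, adjusted p = 0.00086, limma). MKI67, the proliferation antigen that coats mitotic chromosomes, was at 10.7 and 10.8 FPKM in NC and 29.0 and 30.6 FPKM in A3B OE cells, a change of 1.39 (standard error 0.09, adjusted p = 0.0016, limma). TOP2A, the topoisomerase that untangles sister chromatids, was at 22.3 and 21.3 FPKM in NC and 46.5 and 52.1 FPKM in A3B OE cells, with a change of 1.14 (standard error 0.09, adjusted p = 0.0024, limma). In these 3 genes the spread within a group was small beside the distance between the groups. The envelope proteins TMPO and LBR changed by 1.14 and 1.24, and the condensin subunits SMC4 and NCAPD2 by 0.99 and 0.90. CBX5, which encodes the heterochromatin protein HP1 alpha, was the weakest call (0.39, adjusted p = 0.048, limma). RANGAP1 was not called, at 52.6 and 48.1 FPKM in NC and 56.6 and 50.6 FPKM in A3B OE cells, with a change of 0.09 (standard error 0.09, adjusted p = 0.56, limma).

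The remaining 2 members lay far apart. PIMREG, which binds the clathrin assembly protein CALM, had the largest change of all members, from 3.14 and 2.76 FPKM in NC to 10.7 and 10.1 FPKM in A3B OE cells (log2 change 1.53, standard error 0.13, adjusted p = 0.0025, limma). JPT1 was not called, at 161 and 142 FPKM in NC and 176 and 153 FPKM in A3B OE cells, where the groups overlapped (log2 change 0.12, standard error 0.10, adjusted p = 0.46, limma).

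Single libraries decided some of these calls. Without A3B OE replicate 2, 36 members were called higher and 0 lower, and CDK1, AURKA, AURKB and CDCA3 were among those no longer called. Without A3B OE replicate 1, 39 were called higher and 0 lower, and AURKA, AURKB and CDCA3 were again among those lost. With no minimum change required, 32 members were called higher in all 14 settings tried, among them CCNB1, CCNB2, PLK1, CDC20, UBE2C, BUB1, NUF2, TOP2A, HMGB2 and PIMREG. The summed fibroblast markers, mainly COL1A1 and PDGFRB, were between 44.1 and 45.6 FPKM in NC and between 47.6 and 60.7 FPKM in A3B OE cells, and in each group 4 of the 6 were under 1 FPKM in both libraries. The summed epithelial markers were lower, between 7.17 and 8.21 FPKM in NC and between 4.10 and 4.80 FPKM in A3B OE cells. In each group 4 of the 6 were under 1 FPKM in both libraries, but these were not the same 4. KRT14, a keratin of basal epithelium, fell by 1.10 on the log2 scale (1.98 and 2.36 FPKM in NC, 0.412 and 0.545 FPKM in A3B OE cells, adjusted p = 0.0091, limma), and CLDN4, a tight junction claudin, fell by 0.80 (adjusted p = 0.032, limma). KRT14 passed the filter of at least 1 FPKM in at least 2 libraries through NC cells alone, where it was high. Another of the 6 epithelial markers reached 1 FPKM only in A3B OE cells and was not tested. The part of these marker genes, and of the lower depth of the NC libraries, in the result was not tested.

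**Figure D3:**
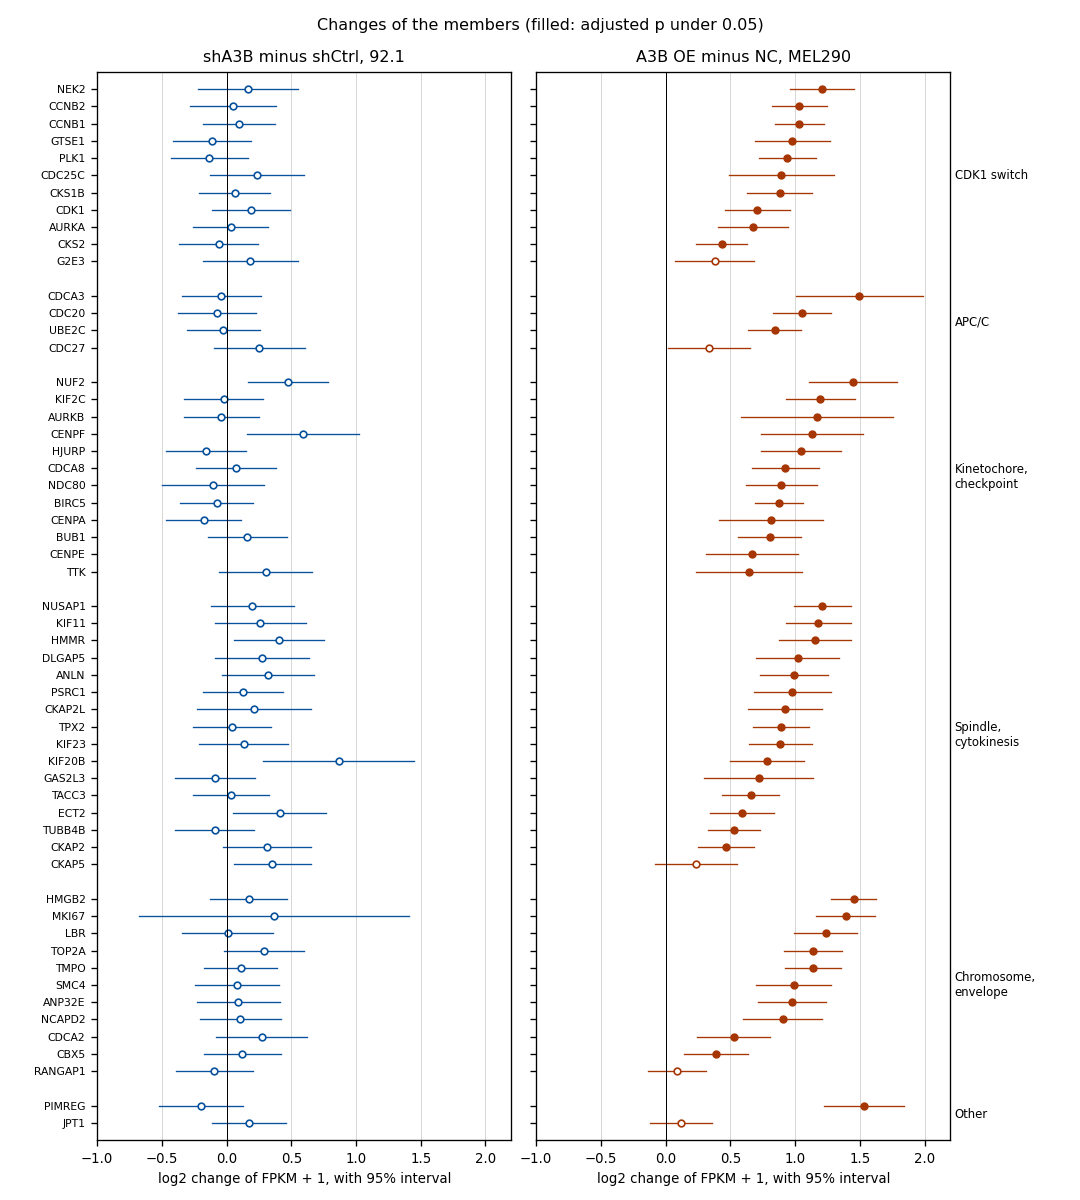
Log2 change of FPKM + 1 with its 95% interval (limma) for each member, by role, for shA3B minus shCtrl in 92.1 (left) and A3B OE minus NC in MEL290 (right), with filled points for adjusted p under 0.05. In MEL290, 51 points are filled and all 56 lie above 0, and in 92.1 none of the 55 is filled.

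The comparison of shA3B with shCtrl cells asks which members change when A3B is depleted in 92.1. No member passed the test. Of the 56 members, 55 were tested, and CENPE did not pass the filter of at least 1 FPKM in at least 2 libraries (0.540 and 0.565 FPKM in shCtrl, 0.562 and 1.79 FPKM in shA3B cells). Called higher were 0 of the 55 and called lower 0 (limma, adjusted p = 0.999 for each), compared with 0% and 0.00862% of 11605 genes tested. At an unadjusted p under 0.05, 6 members were higher and 0 lower, where 1.69% of all genes tested were higher and 1.21% lower. The median log2 change was 0.11, against 7.6e-05 over all genes tested, with 39 positive and 16 negative values between −0.20 and 0.86. Both shA3B libraries lay above both shCtrl libraries for 23 members and below them for 4, where 15.3% and 13.3% of all genes tested did so, and 28 members overlapped.

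For the kinases and cyclins of the switch, the intervals of the change included 0. CCNB1 was at 85.4 and 80.6 FPKM in shCtrl and 90.4 and 87.3 FPKM in shA3B cells, a log2 change of 0.10 (95% interval −0.18 to 0.38). PLK1 was at 57.8 and 64.2 FPKM in shCtrl and 58.6 and 52.5 FPKM in shA3B cells, with a change of −0.13 (95% interval −0.43 to 0.17). CDK1 was at 48.4 and 43.1 FPKM in shCtrl and 49.7 and 55.002 FPKM in shA3B cells, with a change of 0.19 (95% interval −0.11 to 0.49). The shA3B libraries were the higher ones for CCNB1 and CDK1, and the groups overlapped for PLK1. AURKA was at 34.6 and 36.8 FPKM in shCtrl and 36.7 and 36.5 FPKM in shA3B cells, with a change of 0.03 (95% interval −0.26 to 0.32). AURKB was at 51.7 and 56.8 FPKM in shCtrl and 53.4 and 51.8 FPKM in shA3B cells, with a change of −0.04 (95% interval −0.33 to 0.25). The groups overlapped for both Aurora kinases.

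Of the APC/C genes in 92.1, CDC20 was at 44.2 and 46.0 FPKM in shCtrl and 46.2 and 39.9 FPKM in shA3B cells, with a change of −0.07 (95% interval −0.37 to 0.23). UBE2C was at 103 and 112 FPKM in shCtrl and 104.9 and 105.3 FPKM in shA3B cells, with a change of −0.03 (95% interval −0.31 to 0.26). CDC27 was at 19.6 and 14.9 FPKM in shCtrl and 21.3 and 19.8 FPKM in shA3B cells, with a change of 0.25 (95% interval −0.10 to 0.60). The groups overlapped for CDC20 and UBE2C, and both shA3B libraries were the higher ones for CDC27. BUB1 was at 16.7 and 16.5 FPKM in shCtrl and 18.3 and 18.95 FPKM in shA3B cells, with a change of 0.16 (95% interval −0.14 to 0.46). TOP2A was at 43.0 and 36.4 FPKM in shCtrl and 46.3 and 50.9 FPKM in shA3B cells, with a change of 0.29 (95% interval −0.02 to 0.60). Both shA3B libraries lay above both controls for BUB1 and TOP2A. The sign of AURKA, AURKB, CDC20 and UBE2C turned when 1 library was left out, to −0.01 for AURKA without shCtrl replicate 1, 0.03 for AURKB and 0.04 for UBE2C without shCtrl replicate 2, and 0.03 for CDC20 without shA3B replicate 2.

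The 6 members with an unadjusted p under 0.05 were all higher in shA3B cells. Of them, 4 are among the 16 genes of the spindle and cytokinesis and 2 among the 12 of the kinetochore and checkpoint. These are the 2 largest roles, and in the kinetochore and checkpoint group 5 of the 11 tested genes had positive changes and 6 negative ones. KIF20B, a kinesin of cytokinesis, was at 2.002 and 1.20 FPKM in shCtrl and 2.54 and 5.17 FPKM in shA3B cells, a log2 change of 0.86 (standard error 0.27, unadjusted p = 0.0079 and adjusted p = 0.999, limma). CENPF was at 16.2 and 11.1 FPKM in shCtrl and 17.9 and 23.9 FPKM in shA3B cells, with a change of 0.59 (standard error 0.20, unadjusted p = 0.012, limma). NUF2 was at 13.3 and 12.7 FPKM in shCtrl and 17.8 and 18.98 FPKM in shA3B cells, with a change of 0.47 (standard error 0.14, unadjusted p = 0.0064, limma). The groups did not overlap for these genes, but KIF20B and CENPF also differed within groups. The other 3 were ECT2 (0.41), HMMR (0.40) and CKAP5 (0.35). The most negative changes were those of PIMREG (−0.20), CENPA (−0.18), HJURP (−0.16), PLK1 (−0.13) and GTSE1, a regulator of microtubules and p53 (−0.11), none of which had an unadjusted p under 0.05. By role, the median change was 0.06 for the CDK1 switch, −0.03 for the APC/C genes, −0.02 for kinetochore and checkpoint genes, 0.24 for spindle and cytokinesis genes and 0.11 for chromosome and envelope genes.

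The 2 libraries of a group differed by over 1 on the log2 scale for a single member, in 92.1. MKI67, with a canonical transcript of 12.7 kb, was at 2.06 and 5.27 FPKM in shCtrl and 2.05 and 9.43 FPKM in shA3B cells, and replicate 2 lay above replicate 1 by 1.03 and 1.77 on the log2 scale. Both groups held 1 low and 1 high library, and the change of 0.37 had a 95% interval from −0.68 to 1.41. It was −0.15 without shCtrl replicate 1 and −0.52 without shA3B replicate 2. The same gene differed between replicates by 0.02 in NC and 0.08 in A3B OE cells. CENPE (8.5 kb) and KIF20B (6.4 kb) were higher in shA3B replicate 2 than in replicate 1 by 0.84 and 0.80. NEK2 (2.1 kb) and CENPF (10.3 kb) were lower in shCtrl replicate 2, by 0.51 each. Among all genes tested in 92.1, a difference of at least 1 was found between the shCtrl libraries for 0.891% of genes over 6 kb and 0.826% of genes up to 2 kb, and between the shA3B libraries for 0.328% and 0.450%. The median difference, replicate 2 minus replicate 1, changed with length in shCtrl. It was 0.04 up to 2 kb, −0.01 from 2 to 6 kb and −0.11 over 6 kb. In shA3B it was −0.08, −0.03 and −0.01. For the 5 tested members over 6 kb it was −0.08 in shCtrl and 0.40 in shA3B. KIF20B, CENPF and CKAP5 (7.2 kb), higher in shA3B cells at an unadjusted p under 0.05, are among these 5. The median absolute difference between replicates over the members was between 0.12 and 0.16 in the 4 groups.

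**Figure D4:**
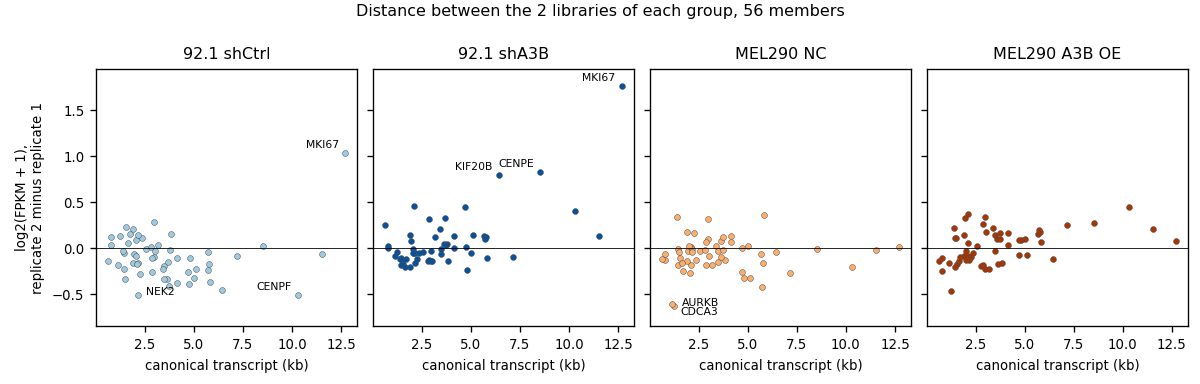
Difference of log2(FPKM + 1) between replicate 2 and replicate 1 of each group against the length of the canonical transcript in kb, 1 point per member, with names for absolute differences of at least 0.5. MKI67 stands apart in both groups of 92.1, at 1.03 and 1.77, and lies near 0 in both groups of MEL290.

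The effects in the 2 cell lines were compared directly, as the effect of A3B OE in MEL290 minus the effect of shA3B in 92.1, in 1 limma fit over all 8 libraries. Of the 56 members, 29 had a more positive effect in MEL290 and 0 a more negative one (adjusted p under 0.05), compared with 3.06% and 1.35% of 12697 genes tested. The median difference was 0.83. The largest were those of PIMREG (1.73, standard error 0.18, adjusted p = 0.0050, limma), CDCA3 (1.54) and HMGB2 (1.28). By role, 6 of 11 genes of the CDK1 switch, 3 of 4 of the APC/C, 7 of 12 of the kinetochore and checkpoint, 6 of 16 of the spindle and cytokinesis, 6 of 11 of chromosomes and the envelope and 1 of the other 2 were called. CCNB1 differed by 0.93 (adjusted p = 0.0091, limma), PLK1 by 1.07 (adjusted p = 0.010, limma) and CDC20 by 1.12 (adjusted p = 0.010, limma). CDK1 (0.52, adjusted p = 0.12, limma), AURKA (0.64, adjusted p = 0.059, limma), AURKB (1.21, adjusted p = 0.066, limma) and MKI67 (1.03, standard error 0.73, adjusted p = 0.50, limma) were not called. The values of KIF20B (−0.08), JPT1 (−0.06) and CKAP5 (−0.12) were below 0. Leaving out any 1 of the 8 libraries lowered the count of 29, to 15 and 18 without shCtrl replicate 1 and 2, 11 and 10 without shA3B replicate 1 and 2, 12 and 11 without NC replicate 1 and 2, and 8 and 12 without A3B OE replicate 1 and 2. The values of KIF20B, JPT1 and CKAP5 also changed sign without some of these libraries. Cell line, vector and the direction of the A3B change cannot be told apart in this comparison.

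The control cells of the 2 lines were also compared. In NC cells of MEL290 compared with shCtrl cells of 92.1, 34 of the 56 members were lower, 11 higher and 11 not called (limma, adjusted p under 0.05). Thus 60.7% of the members were lower and 19.6% higher, where 40.1% of all 12697 genes tested were lower and 34.8% higher. The share called lower was above that over all genes, and the share called higher was below it. The median log2 difference was −0.49, against −0.07 over all genes. PIMREG (29.3 and 34.1 FPKM in shCtrl, 3.14 and 2.76 FPKM in NC cells), CENPA and AURKB were the farthest below, with differences of −3.05, −2.64 and −2.25. CENPE (0.540 and 0.565 FPKM in shCtrl, 4.10 and 4.07 FPKM in NC cells), MKI67, KIF20B and CDC27 were higher in NC cells, by 1.71, 1.42, 1.40 and 1.18. Of these, MKI67 and KIF20B varied between the shCtrl libraries, and CENPE only between the shA3B libraries. CENPE was under 1 FPKM in both shCtrl libraries and passed the filter through MEL290, where it was high. It was no longer tested when at least 1 FPKM was required in every library. In A3B OE cells PIMREG and CENPA, at 10.7 and 10.1 and at 8.60 and 10.2 FPKM, were still below every 92.1 library. CCNB1, CDC20, SMC4 and ANLN were among those above every 92.1 library. Cell line and vector cannot be told apart here, and the levels of the cell lines come from libraries of separate groups.

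Mitotic genes outside the 56 rose in A3B OE cells too. Of 104 other genes of mitosis, 103 were tested in MEL290, and in A3B OE cells 68 were called higher and 1 lower (limma, adjusted p under 0.05). These are 66.0% and 0.97%, where 10.3% of all genes tested were called higher and 7.49% lower. Their median log2 change was 0.76. The largest rises were those of SPC24, a subunit of the NDC80 complex (1.46), KIF18B, a kinesin that shortens astral microtubules (1.45), and KIFC1, which focuses spindle poles (1.34). The exception was CENPT, a protein of the inner kinetochore, at 35.3 and 33.5 FPKM in NC and 23.3 and 21.0 FPKM in A3B OE cells (log2 change −0.61, standard error 0.09, adjusted p = 0.010, limma). Of 17 genes of the DREAM, MuvB, FOXM1 and NF-Y factors, 4 (23.5%) were higher and 0 lower, with a median of 0.26. MYBL2, which encodes B-MYB, was at 11.2 and 10.3 FPKM in NC and 26.3 and 22.8 FPKM in A3B OE cells (log2 change 1.12, standard error 0.11, adjusted p = 0.0035, limma). FOXM1 was at 15.2 and 14.4 FPKM in NC and 27.8 and 28.9 FPKM in A3B OE cells (log2 change 0.89, standard error 0.09, adjusted p = 0.0036, limma). The other 2 were RBL1 (p107; 0.68) and MYBL1 (A-MYB; 0.54), the last named after its value was seen.

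S-phase genes rose as well, with a smaller median, and the difference between the lists was not tested. Of 43 genes, 42 were tested in MEL290, and A3B OE cells had 29 (69.0%) called higher and 0 called lower, where 10.3% and 7.49% of all genes tested were. Their median log2 change was 0.62 (0.61 without CENPU, which is also among the other genes of mitosis), compared with 0.91 over the members. RRM2, a subunit of ribonucleotide reductase, changed by 1.07, GMNN (geminin) by 1.03 and the helicase gene BLM by 0.99. In 92.1, 0 of 103 other mitotic genes, 0 of 17 factor genes and 0 of 43 S-phase genes were called (limma). Of all genes tested there, 0% were called higher and 0.00862% lower. At an unadjusted p under 0.05 the counts in the 3 lists were 3 higher and 0 lower, 0 and 1, and 1 and 0. At that threshold 1.69% of all genes tested were higher and 1.21% lower. MYBL2 and FOXM1 had changes of −0.08 and 0.04 there. In the direct comparison of the 2 cell lines, 33 of the 104 other mitotic genes, 2 of the 17 factor genes and 6 of the 43 S-phase genes were called with a more positive effect in MEL290, and 0 of each list with a more negative one. Over all 12697 genes tested, 3.06% were called with a more positive effect and 1.35% with a more negative one.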

How the data were processed

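RNA was sequenced from 8 libraries, 2 for each of 92.1 shCtrl, 92.1 shA3B, MEL290 NC and MEL290 A3B OE. The FPKM values deposited by the authors were made with STAR (GRCh38, paired reads of 150 bases) and Cufflinks (Ensembl genes), and are normalized for transcript length and mapped fragments. Cuffdiff, used by the authors, starts from reads and was not run. Each cell line was fitted alone on log2(FPKM + 1) by limma 3.58.1 in R 4.3.3, using lmFit and trended eBayes, over genes that reached 1 FPKM in at least 2 of its libraries. Calls were made at 0.05 after Benjamini-Hochberg adjustment over all genes tested. The comparisons between the cell lines used 1 fit over all 8 libraries and the same filter over the 8. No gene set was tested.

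The members and lists were chosen with earlier results of these data known. Every member could be named, and the genes set for fuller description were APOBEC3B, CDK1, CCNB1, PLK1, AURKA, AURKB, BUB1, CDC20, CDC27, TOP2A, MKI67, CENPF, UBE2C and the 5 largest and 5 smallest changes. Of the other lists, the 3 largest rises and falls among called genes, MYBL2 and FOXM1 were named. Lengths came from GENCODE 44, which holds 19033 of the 19952 symbols, and promoters from RefSeq, and a planned search for a degradation motif in the proteins was not run. Depth was estimated from genes with 1 transcript and an FPKM between 0.001 and 0.1, taking 200 bases as unable to start a fragment. Counts of reads could not be taken from FPKM and counting error is not given, and a value of 0 can be a failed estimate. The fits were checked on simulated data. The alternatives were a pseudocount of 0.1, 2 other filters, limma without the trend, quantile and upper quartile scaling, all 8 libraries in 1 fit, a replicate block, a GC and length trend removed, a minimum log2 change of 1, and each library left out.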

Additional observations from a re-analysis of the deposited data

Results flagged for a closer look

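The effect of A3B OE in MEL290 minus the effect of shA3B in 92.1 was above 0, with an adjusted p under 0.05 (limma, 1 fit over 8 libraries), for 29 members. The tested differences in log2 change were 1.73 for PIMREG, 1.54 for CDCA3, 1.28 for HMGB2, 1.23 for LBR, 1.22 for KIF2C, a microtubule depolymerase, 1.21 for HJURP, 1.12 for CDC20, 1.09 for GTSE1, 1.07 for PLK1, 1.04 for NEK2, 1.03 for TMPO and 1.011 for NUSAP1. They were 0.99 for CENPA, 0.98 for CCNB2, 0.97 for NUF2, 0.95 for BIRC5, 0.93 for CCNB1, 0.92 for KIF11, 0.91 for SMC4, 0.89 for ANP32E, a histone chaperone, 0.87 for UBE2C, 0.85 for PSRC1, TPX2, CDCA8 and TOP2A, 0.82 for CKS1B, 0.75 for HMMR, 0.64 for BUB1 and 0.62 for TACC3. Cell line, vector and direction of the A3B change cannot be told apart.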

How the results depend on the processing

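The count of 51 members called higher in MEL290 was 34 with no filter on low values, 20 with a log2 change of at least 1 required and between 36 and 48 with 1 library left out, and 0 members were called lower in any of these. Their median change was 0.98 with a pseudocount of 0.1 and between 0.86 and 0.96 with 1 library left out, and the rise of the median FPKM was between 11.97 and 14.6. In 92.1, 0 members were called with 1 library left out. The median change there was between 0.06 and 0.16, and the difference of the median FPKM, 1.38, was between −0.39 (without shCtrl replicate 2) and 3.14. The 29 members whose effects differed between the cell lines were 12 with a difference of at least 1 required, 17 with no filter, 40 with the GC and length trend removed, and between 8 and 18 with 1 library left out. Of 45 members that differed between NC and shCtrl, 21 differed by at least 1. Of all 56 members 4 were higher and 17 lower by at least 1, where 2309 and 2699 of all 12697 genes tested were. The cause of these shifts was not tested, apart from the added threshold.

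The replicate numbers were not shown to pair the libraries, since deviations of same-numbered libraries correlated by 0.19 in 92.1 and −0.03 in MEL290. With the replicate block, 1 member (KIF20B) was called in 92.1, 48 in MEL290 and 18 for the difference between the cell lines.

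Small values changed sign. With 1 library left out, the changes in 92.1 ran from −0.010 to 0.077 for AURKA, −0.11 to 0.025 for AURKB, −0.17 to 0.033 for CDC20, −0.52 to 1.25 for MKI67 and −0.086 to 0.035 for UBE2C, and the differences between the cell lines ran from −0.10 to 0.27 for CDC27, −0.25 to 0.015 for CKAP5, −0.48 to 0.32 for KIF20B and −0.16 to 0.046 for JPT1. With the GC and length trend removed, AURKA was −0.012 in 92.1, KIF20B 0.034 for the difference between the cell lines and CDC20 0.12 for NC minus shCtrl. UBE2C in 92.1 was 0.021 with quantile and 0.0085 with upper quartile scaling. Of 1179 values of named genes under the alternatives, 1091 kept direction and call, 59 lost the call, 9 gained it and 20 changed sign. FPKM without counts and 2 libraries a group limit what could be called.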
